A study of Mus musculus with 11 samples.

Results

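The 7 transcription factor genes described here are Nr5a1, Nr5a2, Nr0b1, Gata4, Gata6, Foxl2 and Wt1, which set granulosa cell identity and the capacity of these cells to make steroids. They were taken by name, through their Entrez gene IDs, from 24809 gene IDs in the RNA table and 24541 in the table of H3K4me3, a histone mark of active promoters. All 7 were present in both tables, and all 7 passed the filter on low counts in both. Granulosa cells, the somatic cells around the oocyte, came from ovaries of C57BL/6 mice, with no engineered allele named in the labels. The 48 h group had received equine chorionic gonadotropin (eCG), which has follicle-stimulating hormone (FSH) activity in mice, 48 h earlier, and the 0 h group was untreated. RNA was sequenced in 3 libraries at 48 h and 3 at 0 h, labelled postnatal day 21, from cells released by follicle puncture, and H3K4me3 was measured by ChIP-seq in 2 libraries at 48 h and 2 at 0 h, for which no age is labelled. No untreated 48 h group was analysed here, so eCG and elapsed time cannot be told apart.

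Nr5a1 (SF-1) and Nr5a2 (LRH-1) are nuclear receptors that bind the same DNA element as monomers and activate genes of steroid synthesis. Nr0b1 (DAX-1) is an unusual relative without the classical DNA-binding domain that binds NR5A receptors and represses their activity. Gata4 and Gata6 are zinc finger factors that act together with NR5A receptors at steroidogenic promoters. Foxl2 is the forkhead factor that keeps granulosa cells from taking on testicular features, and Wt1 is a zinc finger factor of gonadal somatic cells that is known from granulosa cells of small follicles and from the ovarian surface epithelium.

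RNA libraries held 12013849 to 26343971 counts in total, and those of H3K4me3 held 11989769 to 17968033. Levels are given in CPM, which are counts scaled to library size times a TMM scaling factor. In RNA that factor was 0.922 to 0.957 at 48 h and 1.03 to 1.09 at 0 h. Granulosa markers were abundant in every RNA library. The summed level of 8 of them was 32849 to 33163 CPM at 48 h and 12468 to 16828 CPM at 0 h. These 8 were Fshr, Amh, Amhr2, Inha, Inhba, Cyp19a1, Hsd17b1 and Fst. Among these markers there were 6 rises and 1 fall (Amh), and Amhr2 did not pass. The 48 h replicate 1 of RNA stood apart in markers of other cells. Its summed endothelial markers were at 605 CPM, against 193 and 239 CPM in 48 h replicates 2 and 3 and 104 to 107 CPM at 0 h, and its theca and stroma markers were at 4613 CPM, against 1870 and 1852 CPM in the other 48 h libraries and 1905 to 2368 CPM at 0 h.

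Promoter sequence from RefSeq (GRCm38.p6, the assembly known as mm10) was held for 3 of the 7 genes. The 250 bases before each annotated start are shown for these 3 genes, Nr0b1, Foxl2 and Nr5a2. Nr5a2 has 2 annotated starts, and its H3K4me3 count was near background. A link between promoter sequence and the direction of change was not tested. Capitals mark the letters of 4 motifs found on either strand: the nuclear receptor core AGGTCA, which the longer NR5A site CAAGGTCA contains; GATA sites, that is AGATAA, also TGATAA, also AGATAG, also TGATAG; the GC box GGGCGG; and the TATA box TATAAA. The sequences read 5′ to 3′ on the gene's strand.
Nr0b1, chrX:86191525-86191774, plus strand: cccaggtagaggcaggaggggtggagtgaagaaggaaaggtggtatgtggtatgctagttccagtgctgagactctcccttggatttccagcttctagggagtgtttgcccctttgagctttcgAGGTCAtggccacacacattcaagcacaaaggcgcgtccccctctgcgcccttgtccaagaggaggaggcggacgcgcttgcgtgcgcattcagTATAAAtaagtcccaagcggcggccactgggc
Foxl2, chr9:98955357-98955606, plus strand: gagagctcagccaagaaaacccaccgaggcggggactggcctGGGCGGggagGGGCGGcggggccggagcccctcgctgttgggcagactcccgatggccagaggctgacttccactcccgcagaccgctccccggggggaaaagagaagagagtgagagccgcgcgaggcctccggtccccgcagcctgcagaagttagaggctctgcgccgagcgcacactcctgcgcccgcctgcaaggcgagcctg
Nr5a2, upstream start, chr1:136960449-136960698, minus strand: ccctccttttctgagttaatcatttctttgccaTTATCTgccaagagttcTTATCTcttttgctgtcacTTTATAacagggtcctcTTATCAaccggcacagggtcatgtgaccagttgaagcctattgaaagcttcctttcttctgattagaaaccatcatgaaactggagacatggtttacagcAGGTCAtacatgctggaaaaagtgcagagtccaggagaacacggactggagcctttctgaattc
Nr5a2, downstream start, chr1:136953631-136953880, minus strand: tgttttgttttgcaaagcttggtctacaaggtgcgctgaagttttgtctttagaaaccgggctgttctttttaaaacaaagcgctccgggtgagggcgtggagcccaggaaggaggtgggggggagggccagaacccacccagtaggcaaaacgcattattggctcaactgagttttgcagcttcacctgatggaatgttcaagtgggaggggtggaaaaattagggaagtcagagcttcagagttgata

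The Nr0b1 window holds AGGTCA 126 to 121 bases before the start and TATAAA 32 to 27 bases before it. AGGTCA occurs on either strand in 14.0% and TATAAA in 12.4% of 32851 promoter windows of the same length. The upstream Nr5a2 window holds AGGTCA, 3 GATA sites on the opposite strand and a TATAAA on the opposite strand, where GATA sites occur in 26.5% of windows. The downstream Nr5a2 window holds none of these letters, and neither does any of the 4 hold CAAGGTCA or CAAGGCCA (3.28% of windows), the forkhead core TAAACA (12.0%), the E-box CACGTG (6.02%) or the cAMP response element TGACGTCA (1.55%). The Foxl2 window holds GGGCGG at 2 places (32.7% of windows) and is rich in G and C, at 70.8%, against 57.2% for Nr0b1, 43.2% and 49.6% for the upstream and downstream Nr5a2 windows, and a median of 52.4% over all windows. It has 22 CG dinucleotides, against 11 for Nr0b1, 2 and 6 for Nr5a2 and a median of 6. A match describes letters and does not show a bound site.

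In RNA, 4 of the 7 genes rose after eCG (Nr5a1, Gata4, Gata6 and Foxl2), 2 fell (Nr0b1 and Wt1) and Nr5a2 did not pass the test. Rises and falls were called with edgeR's quasi-likelihood F-test at an adjusted p under 0.05 (Benjamini-Hochberg, over 14401 genes). Of all genes tested, 31.8% were called in either direction, 16% higher and 15.8% lower. The TMM-scaled 48 h and 0 h values of these 6 genes did not overlap. This held for 47.9% of all genes tested, 22.1% with 48 h higher and 25.8% with 48 h lower. The rises of the 4 genes lay between 1.37-fold and 1.56-fold, and the falls were 2.11-fold for Wt1 and 2.83-fold for Nr0b1. The median absolute log2 fold change was 0.57 over the 7 genes and 0.29 over all genes tested. Changes in bulk RNA can come from fewer cells of a type or from less RNA per cell, and these cannot be told apart here.

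**Figure D1:**
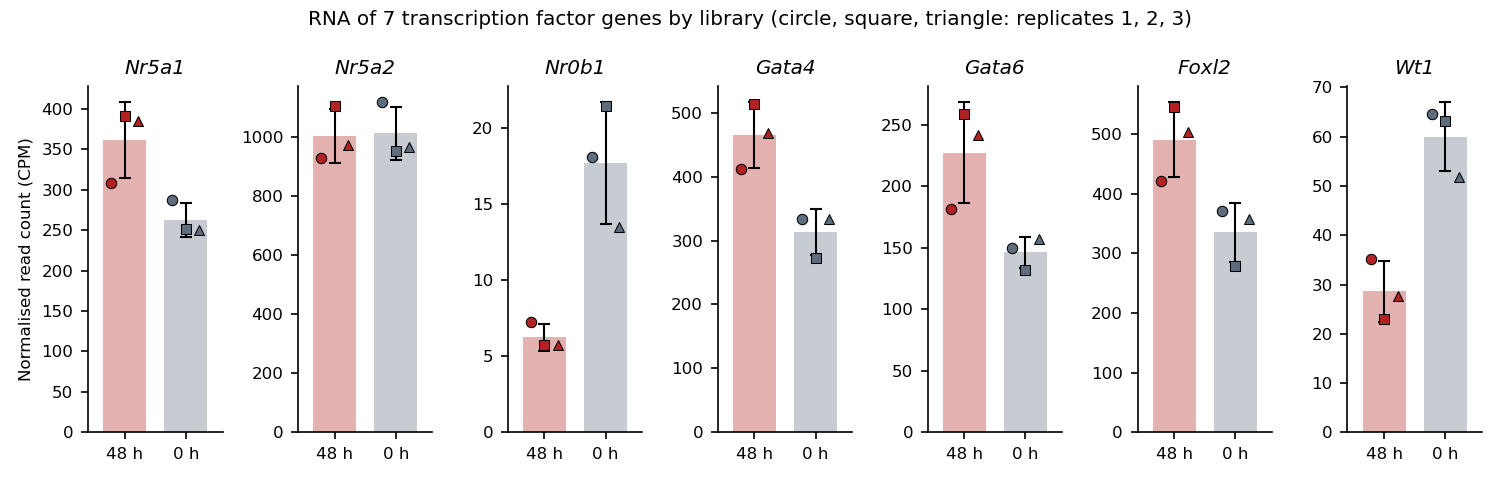
Normalised RNA read counts (CPM, linear axes from 0, a separate scale for each gene) of the 7 genes in 48 h and 0 h libraries. Bars are group means, lines are SD (n = 3 per group), and circles, squares and triangles are replicates 1, 2 and 3. The 48 h and 0 h points separate for 6 genes and overlap for Nr5a2.

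Nr5a1 (gene ID 26423; chromosome 2, 38692656 to 38714542) had 308, 391 and 385 CPM in 48 h replicates 1 to 3 and 287, 251 and 250.1 CPM in 0 h replicates 1 to 3. With TMM scaling, every 48 h library was above every 0 h library, with 48 h replicate 1 nearest to them. The means were 361 ± 46.4 CPM at 48 h and 263 ± 20.9 CPM at 0 h (SD, n = 3 each), a log2 fold change of 0.46 ± 0.12 (SE, adjusted p = 0.0191). The call of Nr5a1 is the least firm of the 6: it was lost with library size as the only scaling (adjusted p = 0.0851), with the replicate number as a block (0.0552) and on dropping 48 h replicate 2 (0.0530), 48 h replicate 3 (0.0548), 0 h replicate 2 (0.0687) or 0 h replicate 3 (0.0779), within a range of 2.69e-04 to 0.0851 over all alternatives.

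Nr5a2 (gene ID 26424; chromosome 1, 136842562 to 136960448) had 931, 1106 and 972 CPM in 48 h replicates 1 to 3 and 1118, 955 and 966 CPM in 0 h replicates 1 to 3. The groups overlapped fully. Their means were 1003 ± 91.4 CPM at 48 h and 1013 ± 91.0 CPM at 0 h, with a log2 fold change of -0.01 ± 0.12 and an adjusted p of 0.942. The difference turned positive when DESeq2 or its size factors were used and when 48 h replicate 1, 48 h replicate 3 or 0 h replicate 1 was left out, without passing in any of these.

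Because both receptors act on the same element, their balance was read within each library, where scaling drops out. The ratio of Nr5a1 to Nr5a2 counts took the values 0.331, 0.353 and 0.396 over 48 h replicates 1 to 3, against 0.257, 0.263 and 0.259 over 0 h replicates 1 to 3. All 48 h libraries were above all 0 h libraries, by 1.38-fold in the mean (log2 difference 0.47). A two-sided exact permutation test over the libraries gave p = 0.1, the smallest that 3 against 3 allows, and 0.2 after adjustment over the 2 ratios tested. Counts are not corrected for transcript length, so the ratio shows the shift between times and not which receptor had more transcripts.

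Nr0b1 (gene ID 11614; chromosome X, 86191775 to 86195947), the repressor of NR5A receptors, had 7.28, 5.76 and 5.75 CPM in 48 h replicates 1 to 3, from 95, 144 and 66 counts. In 0 h replicates 1 to 3 it had 18.1, 21.4 and 13.5 CPM, from 282, 434 and 256 counts. The groups were well apart, and the spread was wider at 0 h. The means were 6.26 ± 0.883 CPM at 48 h and 17.7 ± 3.99 CPM at 0 h, a log2 fold change of -1.50 ± 0.20 (adjusted p = 0.00110). Only 1.42% of all genes tested had a lower log2 fold change, and the call held under each of the alternatives tried.

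Gata4 (gene ID 14463; chromosome 14, 63198914 to 63271712) had 411, 514 and 469 CPM in 48 h replicates 1 to 3 and 334, 272 and 333 CPM in 0 h replicates 1 to 3. Gata6 (gene ID 14465; chromosome 18, 11052510 to 11085636) had 181, 259 and 242 CPM in 48 h replicates 1 to 3 and 149.9, 132 and 157 CPM in 0 h replicates 1 to 3. Both were higher in every 48 h library than in any 0 h library. Gata4 averaged 464 ± 51.4 CPM at 48 h and 313 ± 35.3 CPM at 0 h (log2 0.57 ± 0.12, adjusted p = 0.00905). For Gata6 the means were 227 ± 40.8 CPM at 48 h and 146 ± 12.9 CPM at 0 h (log2 0.64 ± 0.14, adjusted p = 0.00949). Both calls held under all alternatives, with adjusted p-values of up to 0.0361 for Gata4 and 0.0393 for Gata6. Neil2, a DNA repair gene 4760 bases from Gata4, had 4.58 ± 0.697 CPM at 48 h and 4.35 ± 0.539 CPM at 0 h and did not pass (log2 0.07, adjusted p = 0.839).

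The ratio of Gata4 to Gata6 counts took the values 2.27, 1.98 and 1.94 over 48 h replicates 1 to 3, against 2.23, 2.07 and 2.12 over 0 h replicates 1 to 3. The groups overlapped, with a log2 difference of -0.05 and p = 0.6 by the same exact permutation test (0.6 adjusted). The antisense lncRNA Gata6os overlaps the start of Gata6. It rose as well, with 41.6 to 43.3 CPM in the 48 h libraries and 19.6 to 23.7 CPM in the 0 h libraries (log2 0.94 ± 0.10, adjusted p = 4.54e-04). Gata6os spans 11042037 to 11052567 and Gata6 begins at 11052510, so they share only a short stretch. Use of strand in the counting is not given in the sources used here, so reads from that stretch may not be told apart.

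Foxl2 (gene ID 26927; chromosome 9, 98955607 to 98958126) had 422, 546 and 503 CPM in 48 h replicates 1 to 3 and 371, 279 and 357 CPM in 0 h replicates 1 to 3. The groups did not overlap, and 48 h replicate 1 was again the lowest 48 h library. The means were 490.2 ± 62.8 CPM at 48 h and 335 ± 49.7 CPM at 0 h (log2 0.55 ± 0.14, adjusted p = 0.0187). The call was lost with library size as the only scaling (0.0505) and without 48 h replicate 2 (0.0531) or 0 h replicate 2 (0.0609), and its range was 2.86e-04 to 0.0609. Foxl2os, a lncRNA gene that lies 297 bases from Foxl2, had 488, 378 and 392 CPM in 48 h replicates 1 to 3 and 339.9, 384 and 424 CPM in 0 h replicates 1 to 3, groups that overlapped (log2 0.13 ± 0.13, adjusted p = 0.478).

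Wt1 (gene ID 22431; chromosome 2, 105126529 to 105173614) had 35.1, 23.0 and 27.8 CPM in 48 h replicates 1 to 3 and 64.7, 63.2 and 51.9 CPM in 0 h replicates 1 to 3. The lowest 0 h library was well above the highest 48 h library. The means were 28.6 ± 6.12 CPM at 48 h and 59.9 ± 6.99 CPM at 0 h (log2 -1.07 ± 0.16, adjusted p = 0.00176), and the call held under all alternatives, up to an adjusted p of 0.0130. Wt1os, the lncRNA gene 19 bases away, fell too, by 1.28 ± 0.35 on the log2 scale (adjusted p = 0.0240), with 19 to 25 counts per library at 48 h and 43 to 90 at 0 h. Surface epithelium also expresses Wt1. The summed level of 9 measured surface epithelium markers was 179 to 280 CPM at 48 h and 172 to 280 CPM at 0 h in RNA, with 0 rising, 1 falling (Krt8, log2 -0.44; 2 fell without 48 h replicate 1) and 8 not passing. Their part in the Wt1 result was not tested.

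Among the 48 h libraries, replicate 1 lay nearest to the 0 h values for all 6 genes that changed. Without it the log2 fold changes were larger: 0.56 for Nr5a1, 0.65 for Gata4, 0.78 for Gata6, 0.65 for Foxl2, -1.62 for Nr0b1 and -1.25 for Wt1, with adjusted p-values of 5.22e-04 to 0.00537. Of 10 endothelial markers, 9 rose and Vwf did not pass, and 9 rose without this library too, but 5 did without 0 h replicate 1 or 0 h replicate 2. Their largest rises were those of Flt1 (log2 2.50), Pecam1 (2.05) and Emcn (2.04), which without 48 h replicate 1 were 1.56 for Flt1, 1.28 for Pecam1 and 1.37 for Emcn. Theca and stroma markers, a compartment in which Gata4, Gata6 and Nr5a1 are also active, had 2 rises among 12 genes (Lum and Dcn, 0 without any 1 of the 0 h libraries) and 3 falls (Gli1, Ptch1 and Nr2f2), with 7 not passing. The 3 falls became 5 without 48 h replicate 1, 0 were called when 48 h replicate 3 was dropped, and 1 was called when 48 h replicate 2, 0 h replicate 2 or 0 h replicate 3 was dropped. Of 9 oocyte markers tested 4 fell, a count that became 9 on dropping 48 h replicate 1, 2 on dropping 0 h replicate 1 and 0 on dropping any 1 of the other 4 libraries. The part of these cells in the results was not tested. Summed smooth muscle markers were at 235 to 500.1 CPM at 48 h and 393 to 442 CPM at 0 h, and immune markers, of which 0 of 7 passed, at 153 to 264 CPM at 48 h and 193 to 288 CPM at 0 h. Oocyte markers summed to 36.4 to 94.8 CPM at 48 h and 89.5 to 101 CPM at 0 h. Red blood cell markers summed to 165 to 688 CPM at 48 h and 68.9 to 130.01 CPM at 0 h, while Hba-a1 and Hbb-bs, which define red blood cells, were at 0 in every RNA library. All 6 luteal markers rose in RNA, and H3K4me3 rose at 4 of them, with 0 falling and 2 not passing. Of all genes tested, 16% rose and 15.8% fell in RNA, and 6.35% rose and 2.08% fell in H3K4me3. Of these 6 markers 5 are also among the target genes of NR5A and GATA factors, as are 7 of the 8 granulosa markers, so these counts are not independent.

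In H3K4me3, the same 4 genes rose and the same 2 fell, and Nr5a2 again did not pass. Among 24476 genes tested, 8.42% were called, 6.35% higher and 2.08% lower. The groups did not overlap at these 6 genes. Over all genes tested this was so for 49.3%, 26.5% with 48 h higher and 22.8% with 48 h lower. Both assays called a gene in the same direction for 5.12% of the 14357 genes tested in both (3.56% higher and 1.56% lower), and in opposite directions for 0.801%; all 6 called transcription factor genes had the same direction in both. With 2 libraries per group, each SE and p borrows its variation from all genes more than from a gene's own libraries. The window counted per gene is not given in the sources used here, so the value is the H3K4me3 count of a gene. As a guide to background, 5129 genes without an RNA count in any library had a median of 1.56 CPM and a 95th percentile of 17.5 CPM in H3K4me3.

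**Figure D2:**
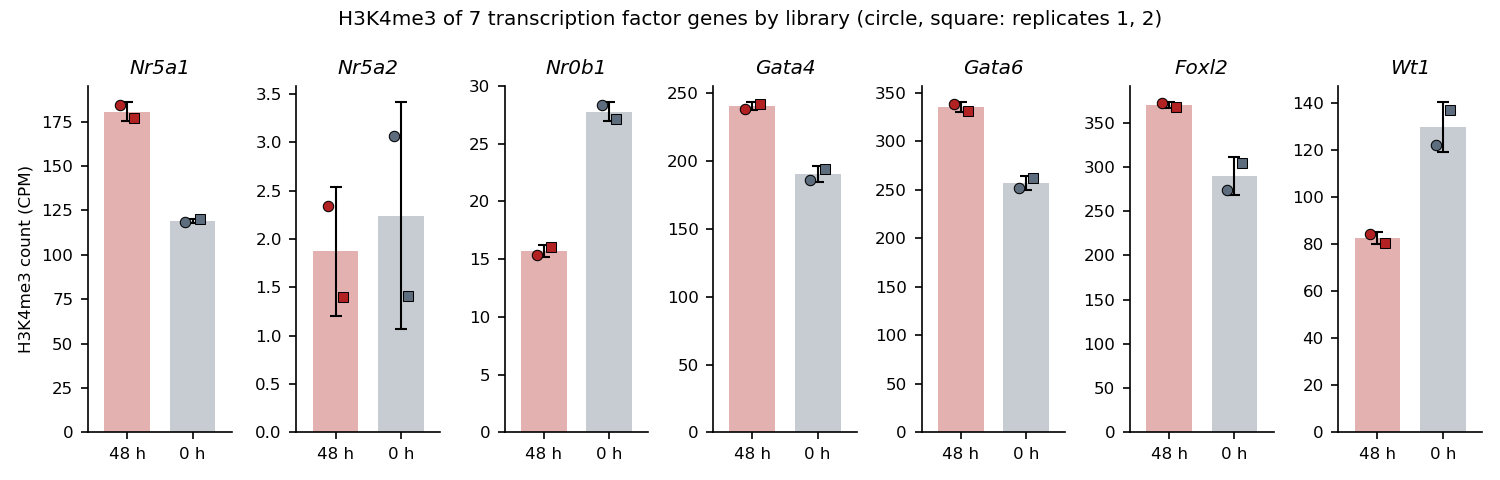
H3K4me3 counts (CPM, linear axes from 0, a separate scale for each gene) of the 7 genes in 48 h and 0 h libraries. Bars are group means, lines are SD (n = 2 per group), and circles and squares are replicates 1 and 2. The groups separate for 6 genes and overlap for Nr5a2, whose values lie between 1.40 and 3.07 CPM.

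H3K4me3 at Nr5a1 was 184 and 177 CPM in 48 h replicates 1 and 2 and 118 and 120.03 CPM in 0 h replicates 1 and 2. The libraries of a group lay close together, far from those of the other. The log2 fold change was 0.60 ± 0.07 (adjusted p = 9.52e-09), and the call held under all alternatives. It was higher than that of 99.1% of all genes tested in H3K4me3, which include many without RNA counts. The pseudogene Adgrd2-ps, 2908 bases from Nr5a1, was not analysed here.

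H3K4me3 at Nr0b1 was 15.4 and 16.1 CPM in 48 h replicates 1 and 2 and 28.3 and 27.2 CPM in 0 h replicates 1 and 2. The 48 h values lay below the 17.5 CPM under which 95% of RNA-silent genes fell, and the 0 h values lay above it. The log2 fold change was -0.82 ± 0.11 (adjusted p = 1.53e-07). At Wt1, H3K4me3 was 84.2 and 80.6 CPM in 48 h replicates 1 and 2 and 122 and 137 CPM in 0 h replicates 1 and 2 (log2 -0.65 ± 0.07, adjusted p = 5.19e-09). Both calls held under all alternatives. Wt1os had nearly the same counts as Wt1, at 100.03% of its level at 48 h and 99.97% at 0 h, so the mark of the pair cannot be told apart. Surface epithelium markers had lower H3K4me3 at 4 of 9 genes, among them Upk1b (log2 -0.70), with 0 higher and 5 not passing, a count of 4 that became 2 with DESeq2, under the block and on dropping 48 h replicate 1, and 0 on dropping 0 h replicate 1, and a summed level of 112 to 117 CPM at 48 h and 139 to 148 CPM at 0 h. Of these 4 genes Upk1b, Upk3b and Krt19 were under 17.5 CPM in both groups, and Krt8 was above it. H3K4me3 was lower at 2.08% and higher at 6.35% of all genes tested. Their part in the H3K4me3 result at Wt1 was not tested.

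The 3 remaining risers had smaller H3K4me3 differences. Gata4 had 238 and 242 CPM in 48 h replicates 1 and 2 and 186 and 194 CPM in 0 h replicates 1 and 2 (log2 0.34 ± 0.07, adjusted p = 4.91e-04). Gata6 had 339 and 331 CPM in 48 h replicates 1 and 2 and 252 and 262 CPM in 0 h replicates 1 and 2 (log2 0.38 ± 0.07, adjusted p = 8.76e-05). Foxl2 had 372 and 368 CPM in 48 h replicates 1 and 2 and 274 and 304 CPM in 0 h replicates 1 and 2 (log2 0.36 ± 0.07, adjusted p = 3.95e-04). In each case both 48 h libraries were above both 0 h libraries. All 3 calls were lost without 0 h replicate 1 (adjusted p = 0.111 for Gata4, 0.0514 for Gata6 and 0.171 for Foxl2), a setting with 282 calls over the whole table in place of 2062. Gata6os had 100.6% of the Gata6 count at 48 h and 100.7% at 0 h. Foxl2os had 96.8% of the Foxl2 count at 48 h and 95.9% at 0 h. The mark of these neighbours may be shared.

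H3K4me3 at Nr5a2 was 2.34 and 1.40 CPM in 48 h replicates 1 and 2 and 3.07 and 1.41 CPM in 0 h replicates 1 and 2, from 17 to 48 counts per library. These values were near the median of RNA-silent genes in all 4 libraries, although Nr5a2 had 931 to 1118 CPM of RNA in the RNA libraries. The log2 fold change was -0.31 ± 0.33 (adjusted p = 0.657), and the replicates of each group differed more than the group means. Which of the 2 annotated starts shown above the counted window covers is not given in the sources used here.

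**Figure D3:**
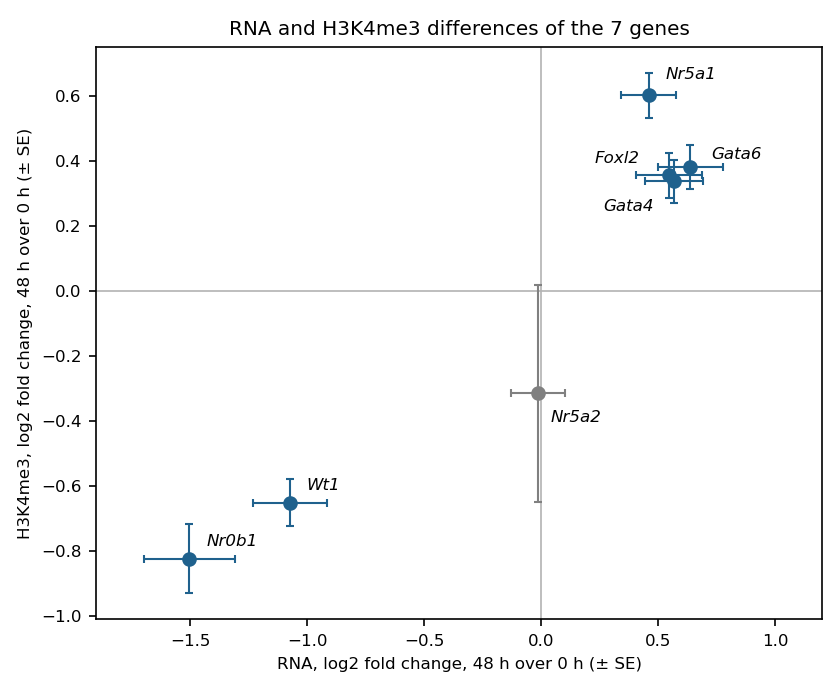
Log2 fold changes (48 h over 0 h) of the 7 genes in RNA (horizontal axis) and H3K4me3 (vertical axis), with SE bars. Points in blue passed the test in both assays, and Nr5a2, in grey, passed in neither. Nr0b1 and Wt1 lie at lower left, and Nr5a1, with a larger H3K4me3 than RNA value, at upper right with Gata4, Gata6 and Foxl2.

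Of 20 genes known as targets of NR5A or GATA factors in gonadal cells, 17 rose in RNA, 1 fell and 2 did not pass. Their median log2 fold change was 1.32, against -0.03 over all genes tested, of which 16% rose and 15.8% fell. The list was chosen with earlier results of these data known. A link of these counts to the 7 genes was not tested. The largest rises were those of Lhcgr, the receptor for luteinizing hormone (3.73 ± 0.30), Hsd17b7, an enzyme of oestradiol and cholesterol synthesis (3.53 ± 0.40), and Akr1c18, which inactivates progesterone (2.94 ± 0.48). Without 48 h replicate 1 the value of Hsd17b7 was 2.89 ± 0.14. Amh, the hormone of small growing follicles, fell by 1.38 on the log2 scale. Amhr2, its receptor (-0.04), and Cyp17a1, the androgen-making enzyme of theca cells (0.03), did not pass. Inha, the inhibin alpha subunit, had 1.04 ± 0.13. The fall of Amh was lost when any 1 of 48 h replicate 2, 48 h replicate 3 and 0 h replicate 1 was left out. The 24476 genes tested in H3K4me3, of which 6.35% were higher and 2.08% lower, include many without RNA counts. In H3K4me3, 11 of the 20 rose, 2 fell (Cyp17a1, which was under 17.5 CPM in both groups, and Amh) and 7 did not pass, with a median of 0.38 against -0.00143 over all genes, and the 2 falls were 0 without 0 h replicate 1 and 1 without 0 h replicate 2 or with DESeq2.

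Of 20 cofactors of NR5A and GATA factors, 3 rose in RNA, 3 fell and 14 did not pass, with a median of -0.18. These shares were near those over all genes tested, of which 16% rose and 15.8% fell. Nr0b2 (SHP), the nearest relative of Nr0b1 and likewise a repressor of NR5A receptors, rose to 7.07 ± 1.86 CPM at 48 h, against 2.99 ± 0.996 CPM at 0 h (log2 1.23 ± 0.31, adjusted p = 0.0158), while Nr0b1 fell. H3K4me3 at Nr0b2 rose as well, to 19.1 ± 1.03 CPM at 48 h, against 10.1 ± 0.690 CPM at 0 h (log2 0.91 ± 0.13, n = 2 each). The 0 h values lay below the 17.5 CPM under which 95% of RNA-silent genes fell, and the 48 h values lay little above it. Cited2, a coregulator that works with WT1 and NR5A1 in the early gonad, rose by 1.06 ± 0.11, and Ctnnb1, beta-catenin, by 0.35 ± 0.09. Zfpm2 (FOG2), the partner that binds GATA4, fell to 19.8 ± 1.16 CPM at 48 h, against 41.1 ± 2.66 CPM at 0 h (log2 -1.05 ± 0.09, adjusted p = 2.60e-04). The steroid receptor coactivators Ncoa2 and Ncoa3 fell by 0.45 and 0.36. Both falls were lost on dropping 0 h replicate 2 or 0 h replicate 3, and the rise of Ctnnb1 was lost on dropping either of these, 48 h replicate 2 or 48 h replicate 3. With library size as the only scaling 10 cofactor genes in place of 3 were lower, and without 0 h replicate 2 only 1 was.

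In H3K4me3, 6.35% of all genes tested were higher and 2.08% lower. The mark was higher at 10 of the 20 cofactor genes, lower at 0 and did not pass at 10. The largest differences were those of Nr0b2, Prox1 (0.40) and Ncoa2 (0.37). The median was 0.20, while the median of the same genes in RNA was -0.18. Over all genes tested in H3K4me3, which include many without RNA counts, it was -0.00143. The count of 10 became 2 with DESeq2 and on dropping 48 h replicate 1, 1 on dropping 0 h replicate 1, and 6 on dropping 0 h replicate 2 or under the block. Zfpm2 had 147 CPM at 48 h and 153 CPM at 0 h of H3K4me3 and did not pass (log2 -0.05, adjusted p = 0.722).

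**Figure D4:**
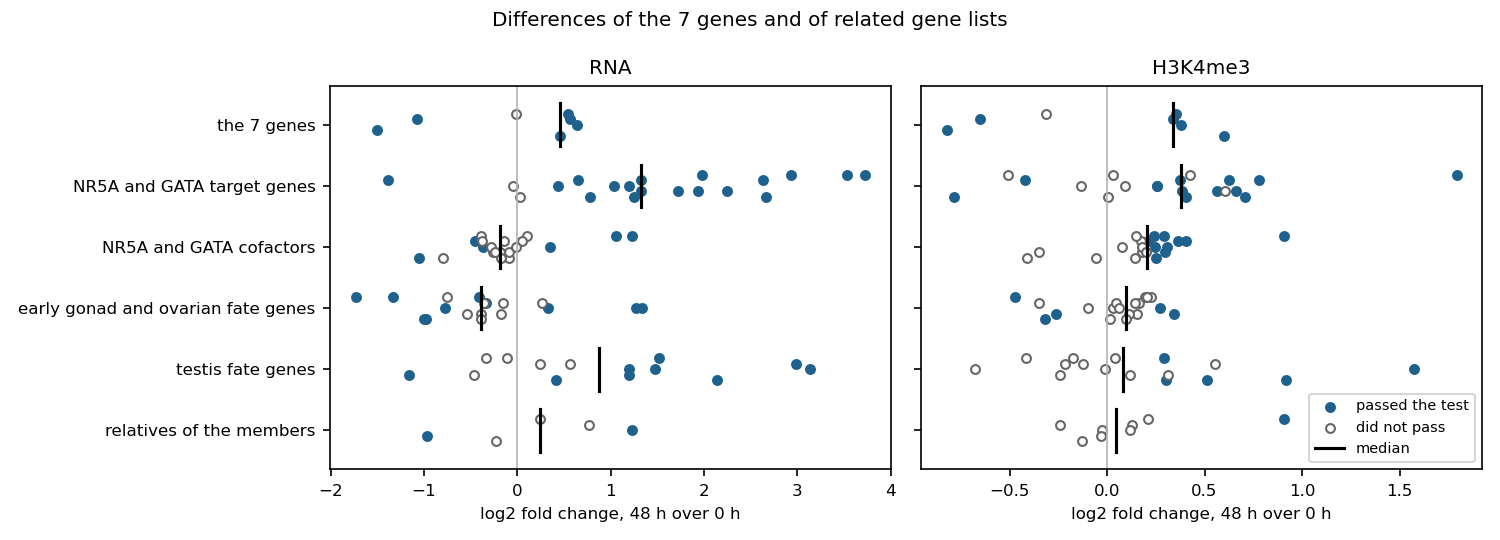
Log2 fold changes (48 h over 0 h) in RNA and H3K4me3 of the 7 genes and of 5 lists of related genes. Filled points passed the test, open points did not, and vertical bars are medians over tested genes. In RNA the target genes lie mostly right of 0, with a median of 1.32, and the early gonad and ovarian fate genes mostly left, with a median of -0.39.

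Of 18 other genes of early gonad development and ovarian fate tested in RNA, 3 rose, 7 fell and 8 did not pass. Their median was -0.39, and of all genes tested 16% rose and 15.8% fell. Six4, a homeobox factor that acts upstream of Nr5a1 in the early gonad, fell by 1.73 ± 0.38, with 0.296 ± 0.0308 CPM at 48 h and 1.01 ± 0.240 CPM at 0 h. That fall rests on only 3 to 8 counts per library at 48 h and 14 to 26 at 0 h. Bmp2, a ligand that induces Foxl2, fell by 1.33 ± 0.20, and Esr2, the main oestrogen receptor of granulosa cells, by 0.99 ± 0.13. Fst, the activin-binding protein follistatin and a FOXL2 target, rose by 1.34 ± 0.16, and Wnt4, an ovary-determining signal, by 1.28 ± 0.15. In H3K4me3, 2 rose (Wnt4 and Fst), 3 fell (Bmp2, Esr2 and Esr1) and 14 did not pass; without 0 h replicate 1 or 48 h replicate 1 these counts were 0 rises and 1 fall. Of all genes tested in H3K4me3, 6.35% were higher and 2.08% lower. With library size as the only scaling 12 genes of this list were lower in RNA.

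FOXL2 represses testis genes in granulosa cells, and WT1 helps maintain Sertoli cells, the supporting cells of the testis, so testis genes were listed too. Of 14 tested in RNA, 8 rose, 1 fell and 5 did not pass, with a median of 0.88. Over all genes tested, 16% rose and 15.8% fell. A link of these counts to Foxl2 or Wt1 was not tested. Sox9, the factor of Sertoli cell fate, had 1.52 CPM at 48 h and 2.02 CPM at 0 h and did not pass (log2 -0.46 ± 0.47, adjusted p = 0.491), and Dmrt1, Sox10 and Cst9 had too few counts to be tested. The rises were led by Cyp26b1, which degrades retinoic acid (3.14 ± 0.34), Rhox8, a homeobox gene also known from granulosa cells (2.99 ± 0.17), and Ptgds, a prostaglandin D synthase (2.14 ± 0.28), and Hsd17b3, which makes testosterone, fell by 1.16 ± 0.29. That fall was lost with DESeq2, under the block and without any 1 of 48 h replicate 2, 48 h replicate 3, 0 h replicate 2 and 0 h replicate 3. The 8 rises were 5 with the replicate number as a block or without 48 h replicate 2. H3K4me3 rose at 5 of 16 testis genes, fell at 0 and did not pass at 11, while 6.35% of all genes tested rose and 2.08% fell. The largest rises were those of Rhox8 (1.57), Defb19 (0.92) and Sox8 (0.51). Rhox8, with 13.3 CPM at 48 h and 4.33 CPM at 0 h, and Defb19, with 9.29 CPM at 48 h and 4.89 CPM at 0 h, were under the 17.5 CPM of RNA-silent genes in both groups. On dropping 0 h replicate 1 the count of 5 became 1, and Rhox8 had 2.17.

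Among 8 relatives of the 7 genes, Nr0b2 rose in RNA and Nr6a1, an orphan receptor of germ cells, fell to 6.39 ± 0.491 CPM at 48 h, against 12.4 ± 2.72 CPM at 0 h (log2 -0.96 ± 0.19). Gata1, Gata2 and Trps1 did not pass, and Gata3, Gata5 and Foxl1 had too few counts to be tested, with means of 0.251, 0.244 and 0.0911 CPM at 48 h and 0.702, 0.486 and 0.0984 CPM at 0 h. Without 48 h replicate 1, Gata3 passed the filter and fell (log2 -2.29, adjusted p = 0.0163), beside Nr6a1, and with library size as the only scaling 2 relatives fell. In H3K4me3, 1 of the 8 rose (Nr0b2), 0 fell and 7 did not pass.

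The genes whose log2 CPM over the 6 RNA libraries ran most like each transcription factor gene were found by Pearson's r among 10070 other genes that averaged 10 CPM or more. They are a description of the same libraries, which differ by group, depth and marker content. They were Mrpl11 and Slc25a4 for Nr5a1 (r = 0.997 for both), Nipsnap2 and Gins3 for Nr5a2 (0.986 and 0.981), Slc25a51 and Ippk for Nr0b1 (0.997 and 0.996), and Nkiras1 and Tmem167 for Gata4 (0.994 and 0.993). For Gata6 they were Impdh1 and Ncoa4 (0.991 for both), for Foxl2 Cln8 and 1700066M21Rik (0.997 and 0.996), and for Wt1 Jup and Sec31b (0.997 and 0.996). An r above 0.95 was reached by 12 genes for Nr5a2 and by 135 to 376 genes for each of the 6 others. Pearson's r does not measure the size of a change. Slc25a51 (log2 -0.11), Mrpl11 (0.19), Nkiras1 (0.21), 1700066M21Rik (0.41), Nipsnap2 and Gins3 did not pass the test, and the rest of these genes did.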

How the data were processed

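RNA (6 libraries) and H3K4me3 ChIP-seq (4 libraries) of granulosa cells were analysed, and 1 input library was not used here. The deposited values are whole-number read counts for each Entrez gene ID, 1 column per library per the file headers. The submitters' processing notes name FastQC 0.11.5, Picard, STAR, kallisto and sleuth for RNA, Trimmomatic, Bowtie2 2.2.9, MACS2 2.2 and ChIPseeker 1.18.0 for ChIP-seq, and build mm10 for both, with no roles given. Which program counted, whether it used strand and which H3K4me3 window it used is not given. RNA columns were tied to samples and H3K4me3 columns to groups by name, with the number in the column's name as replicate.

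The 48 h and 0 h libraries of an assay were compared in edgeR 4.0.16 (R 4.3.3) with the quasi-likelihood test, TMM scaling, filterByExpr and Benjamini-Hochberg adjustment over all genes tested, a fit also tested on simulated data. SEs were derived from the test statistic. CPM were computed here with TMM scaling. Alternatives were DESeq2 1.42.0 or its size factors, library size alone, no filter, the replicate number as a block, and leaving out each library. The series describes libraries of a group as biological replicates, and none agreed within sampling noise (chi-square per degree of freedom 1.69 to 38.5).

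Symbols, positions and promoters came from a RefSeq table of GRCm38.p6, with a symbol for 24742 RNA and 24472 H3K4me3 IDs. Neighbours were genes within 5000 bases. The 7 genes and all lists were chosen with earlier results of these data known. Named genes were the 7, their neighbours, from each list up to 3 largest called rises and falls, and the 2 likest genes by Pearson's r; Amhr2, Cyp17a1, Inha, Esr1, Sox9, Zfpm2 in H3K4me3 and members too low to test were named after their values were seen. Some list genes are not reported here by name.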

Additional observations from a re-analysis of the deposited data

How the results depend on the processing

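Each of the 6 genes called in RNA and in H3K4me3 kept its direction under all alternatives run. Library size as the only scaling moved the median log2 fold change of all RNA genes to -0.20 from -0.03 and the share of higher calls to 26.8% from 50.2%. Nr5a1 then had 0.29 and Foxl2 0.38, neither passing, which relative to the median of all genes were 0.49 and 0.58, as in the reported fit. A change of scaling shifts all genes nearly alike, so this match was fixed in advance and is no support for the calls. In H3K4me3 the same scaling gave 52.3% higher calls in place of 75.4%. With the replicate number as a block, a number that the deviations did not show to pair libraries (r across genes -0.21, -0.15 and -0.13 for same-numbered RNA pairs and 0.0248 for H3K4me3), Nr5a1 had 0.45 in RNA and did not pass, and H3K4me3 calls numbered 1280. DESeq2 gave 865 H3K4me3 calls. Leaving out 1 library at a time, RNA calls ranged from 2882 (without 0 h replicate 3; 2956 without 0 h replicate 2) to 5345 and H3K4me3 calls from 282 (without 0 h replicate 1; 1181 without 48 h replicate 1, 1252 without 0 h replicate 2) to 2764, with 1 H3K4me3 arm then held by a lone library that was assumed to vary like the others. The log2 ranges were 0.41 to 0.56 for Nr5a1 and 0.44 to 0.65 for Foxl2 in RNA, and 0.29 to 0.37 for Gata4, 0.33 to 0.41 for Gata6 and 0.26 to 0.43 for Foxl2 in H3K4me3. Nr5a2 passed nowhere and its sign turned, with RNA at 0.00851 with DESeq2 size factors, 0.00867 with DESeq2 and -0.0727 to 0.0650 without single libraries, and H3K4me3 at -0.72 to 0.37 without single libraries. The cause was not tested. Counts of list genes moved by over 1.5 times in 79 cases and stayed within that in 481. Depth limits Nr0b1, which rests on 66 to 144 RNA counts per library at 48 h, and H3K4me3 at Nr5a2, with 17 to 48 counts.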
